A study of Rattus norvegicus with 9 samples.

Results

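The genes described here encode the enzymes and receptors of the lipoxygenase and leukotriene pathway: *Alox5*, *Alox5ap*, *Alox12*, *Alox15*, *Lta4h*, *Ltc4s*, *Ltb4r*, *Cysltr1* and *Cysltr2*. They were taken by symbol, and all 9 were found once each among 34408 gene entries of rat spleen RNA sequencing libraries. All 9 passed the filter on low counts, as did 15954 genes in all. Wild-type rats, for which the labels give no strain, sex or age, fell into 3 groups with 3 libraries each. The control group has no further label. The TAA group received thioacetamide, which damages the liver and is given to rodents to cause fibrosis and cirrhosis, as an intraperitoneal dose of 200 mg/kg each 3 days over 8 weeks and of 100 mg/kg at the same interval over 8 more weeks. The TAA+celecoxib group had the same TAA doses plus celecoxib at 20 mg/kg/day in the final 8 weeks. RNA came from spleen, with splenocytes as the labelled cell type. Nothing in them says that the libraries of a group came from separate animals, so the p-values measure the spread between these libraries, which may be technical. That spread was larger than counting error alone would give. Over all 36 pairs of libraries, chi-square per degree of freedom of the counts was 17.0 to 133. Its source was not tested.

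Leukotrienes are lipid signals made from arachidonic acid, mostly by myeloid leukocytes. The enzyme of *Alox5*, held to the nuclear membrane by the *Alox5ap* protein, turns arachidonic acid into the unstable leukotriene A4. The *Lta4h* product hydrolyses A4 to leukotriene B4, which attracts neutrophils through the receptor encoded by *Ltb4r*. The *Ltc4s* product joins A4 to glutathione instead, which starts the cysteinyl leukotrienes read by the receptors of *Cysltr1* and *Cysltr2*. *Alox12* encodes the platelet-type lipoxygenase and *Alox15* a lipoxygenase known from eosinophils, macrophages and immature red cells. Celecoxib inhibits cyclooxygenase 2, which draws on the same arachidonic acid to make prostaglandins, so the design sets a pathway that shares this substrate beside the drug.

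Promoter sequences (RefSeq, build GRCr8, the 250 bases before the annotated start, read in the direction of the gene) matched 6 of the 9 symbols. *Alox15*, *Alox5ap* and *Cysltr1* had none. The 3 printed here belong to *Alox5*, *Lta4h* and *Alox12*. Levels of *Alox5* and *Lta4h* correlated over the 9 libraries by Pearson's r, but not past the threshold by Spearman's rho or over 7 libraries. The genes most like *Alox12* included the platelet genes *Gp1ba* and *Tubb1*. Capitals mark matches on either strand to 5 short motifs: GGGCGG (GC box), GATAA (the core letters read by GATA factors), GAGGAA (letters of the PU.1 site), CCAAT and TATAAA.
Alox5 promoter, chr4:151251127-151251376, minus strand: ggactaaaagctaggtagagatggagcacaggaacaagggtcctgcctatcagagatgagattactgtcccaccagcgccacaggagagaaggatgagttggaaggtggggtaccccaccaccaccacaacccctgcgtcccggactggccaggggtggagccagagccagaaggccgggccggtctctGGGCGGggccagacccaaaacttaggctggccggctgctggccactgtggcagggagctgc
Alox12 promoter, chr10:55469200-55469449, minus strand: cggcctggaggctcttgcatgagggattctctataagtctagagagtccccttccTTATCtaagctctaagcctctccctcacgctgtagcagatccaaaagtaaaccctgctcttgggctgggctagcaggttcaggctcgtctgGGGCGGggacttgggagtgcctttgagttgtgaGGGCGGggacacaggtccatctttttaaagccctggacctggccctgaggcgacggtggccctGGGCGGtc
Lta4h promoter, chr7:29856621-29856870, plus strand: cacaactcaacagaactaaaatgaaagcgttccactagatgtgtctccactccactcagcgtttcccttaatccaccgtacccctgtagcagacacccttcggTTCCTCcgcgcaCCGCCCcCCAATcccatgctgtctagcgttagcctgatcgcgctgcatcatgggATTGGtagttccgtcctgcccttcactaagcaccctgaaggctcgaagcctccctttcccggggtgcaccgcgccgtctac
The *Alox5* window held 1 GC box. The *Alox12* window held 3 GC boxes and 1 GATA motif, and the *Lta4h* window 1 GC box, 1 PU.1 motif and 2 CCAAT boxes, with no overlap between any of them. Of the 6 promoters, 3 held a GC box, 3 a GATA motif, 2 a PU.1 motif, 3 a CCAAT box and 0 a TATAAA. Among 33469 rat promoters of the same length the shares were 30.5% for the GC box, 23.5% for GATA, 23.3% for PU.1, 34.0% for CCAAT and 12.9% for TATAAA. A match describes the letters only.

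Library totals ran from 14211789 to 19014761 counts, so that 1 count was worth 0.0526 to 0.0704 CPM (each count over its TMM-scaled library size, the unit used below for 1 gene across libraries). Markers of B cells summed to 2180 to 4251 CPM per library, of T cells to 639 to 1092 CPM and of red pulp macrophages to 2620 to 9718 CPM, so the labelled tissue was present, although *Slc40a1*, the iron exporter of red pulp macrophages, reached only 4.33 CPM. On the first principal component (31.3% of the variance), control replicate 1 at -63.2 and TAA+celecoxib replicate 1 at -60.3 stood apart from the others, which ran from -1.73 to 50.1. *Alb*, the liver's albumin gene, was at 575 CPM in TAA replicate 1 and 89.0 CPM in control replicate 1 and at most 0.701 CPM elsewhere. Markers of pancreatic acinar cells summed to 93.9 CPM in TAA replicate 2 and to 6.35 to 23.0 CPM elsewhere. In RNA from a mix of cells, fewer cells of a type and less RNA per cell cannot be told apart.

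Set side by side per gene length (deposited FPKM), *Lta4h* had the highest level in each of the 9 libraries, at a median of 60.8 FPKM and a range of 35.7 to 91.2 FPKM. *Alox5ap* followed at a median of 28.0 FPKM, *Alox15* at 11.2 FPKM and *Alox12* at 6.28 FPKM. *Alox12* ranked next after these in every library, while *Alox15* stood above *Alox5ap* in TAA replicate 1 and TAA+celecoxib replicate 2 only. The remaining 5 had median levels of 2.79 FPKM for *Cysltr2*, 1.59 FPKM for *Cysltr1*, 1.58 FPKM for *Ltc4s*, 1.17 FPKM for *Ltb4r* and 1.02 FPKM for *Alox5*. Their ranges overlapped and their order changed from library to library, so these 5 could not be ranked beyond their spread.

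**Figure D1:**
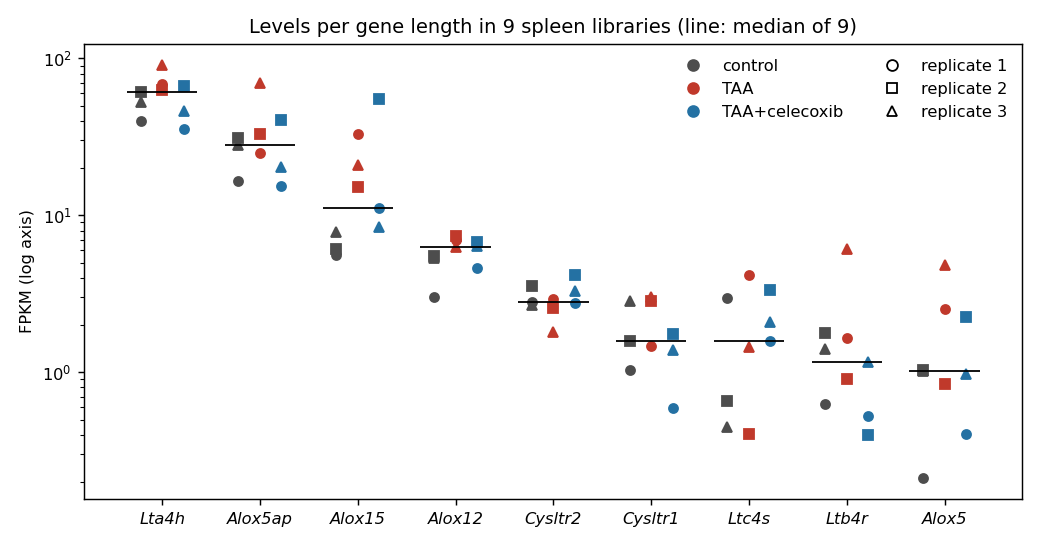
Deposited FPKM (log axis) of the 9 genes in 9 spleen libraries, coloured by group, with the median of the 9 libraries as a line. *Lta4h* is at the top, *Alox12* sits between 3.02 and 7.41 FPKM, and the 5 lowest genes overlap.

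Within a library, *Alox5ap* exceeded its partner *Alox5* by a ratio of FPKM levels between 9.89 in TAA replicate 1 and 78.8 in control replicate 1. The levels of both branch enzymes after leukotriene A4 were also far apart, with *Lta4h* at 13.3 to 156 times the FPKM of *Ltc4s*. *Ltc4s* rested on 3 to 30 counts per library. *Alox15* was above *Alox12* in all 9 libraries, with a ratio of 1.11 to 1.85 in control, 2.05 to 4.78 in TAA and 1.32 to 8.09 in TAA+celecoxib. *Cysltr1* was below *Cysltr2* in 6 of 9 libraries and above it in control replicate 3, TAA replicate 2 and TAA replicate 3.

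The comparison of TAA with control asks what TAA alone did to the spleen. *Alox15* was 3.53-fold higher, *Alox5* 3.62-fold, *Alox12* 1.49-fold and *Lta4h* 1.45-fold, and none of the 9 genes passed the adjusted threshold of 0.05. In edgeR's quasi-likelihood test 0% of the 15954 genes passed it in this comparison. At unadjusted p under 0.05, 3 of the 9 were higher and 0 lower, against 2.85% and 3.15% of all genes. The TAA libraries lay wholly above control for 3 of the 9 and wholly below for 0, against 6.94% and 7.89% of all genes. Fitted values were above 0 for 8 of 9, against 50.2% of all genes, and their median log2 fold change was 0.57, against 0.00 for all genes tested. The genes were chosen with earlier results known and several moved together, so these counts describe them and are not a test.

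**Figure D2:**
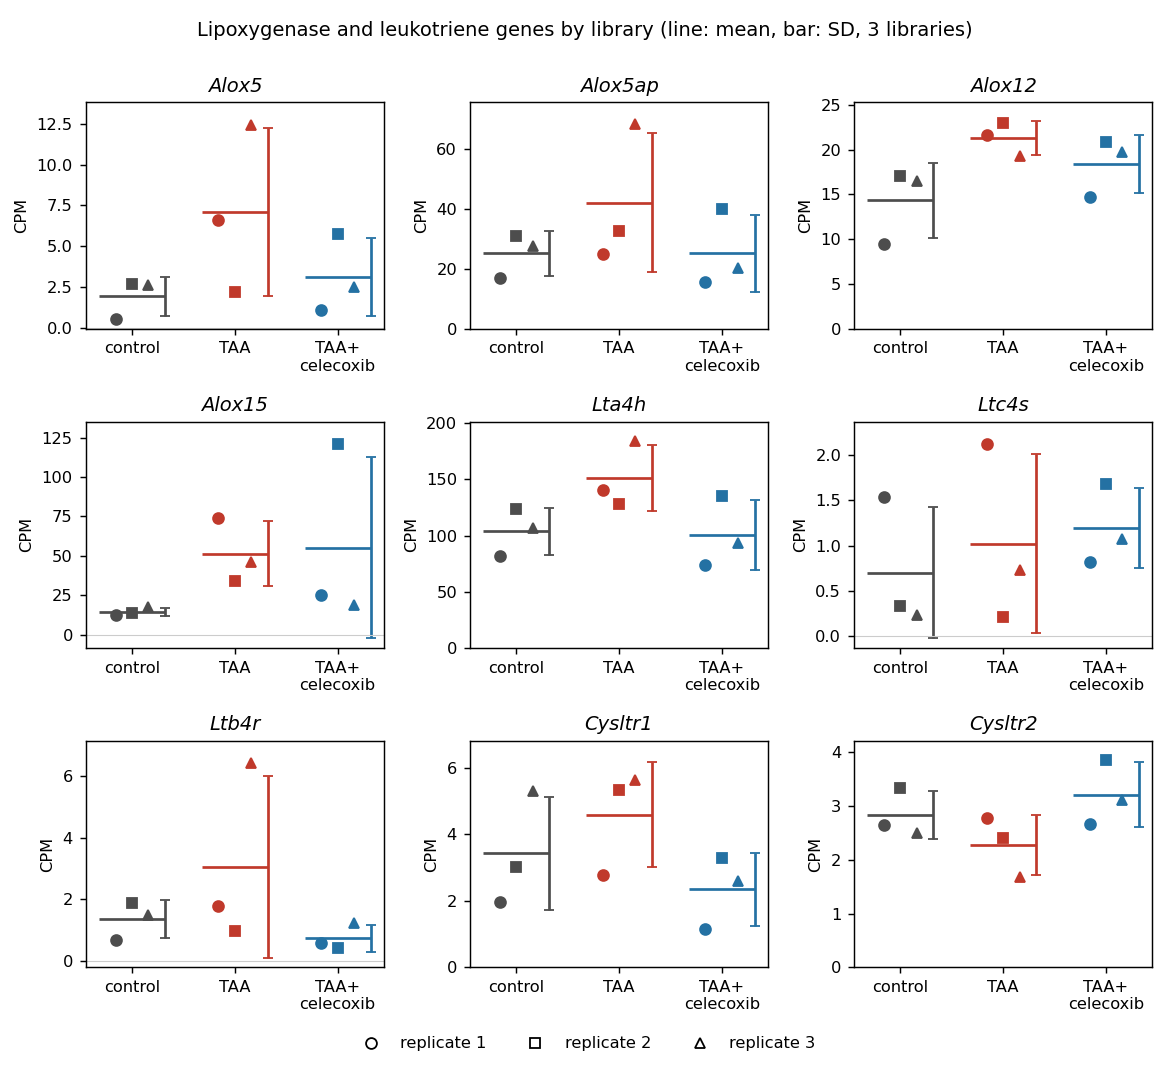
CPM of each gene in each library, by group, with the mean as a line and the SD over 3 libraries as a bar. The TAA points of *Alox15*, *Alox12* and *Lta4h* all lie above the control points, and TAA replicate 3 is the highest point for *Alox5*, *Alox5ap*, *Lta4h*, *Ltb4r* and *Cysltr1*.

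*Alox15* (chromosome 10, 56953691 to 56962161, as the files give it) was at 12.6, 13.6 and 17.4 CPM in control, at 74.2, 33.8 and 46.2 CPM under TAA and at 25.4, 121 and 18.8 CPM in TAA+celecoxib. Every library given TAA was above every control library. The log2 fold change was 1.82 ± 0.66 (SE) for TAA against control, with an unadjusted p of 0.0219 and an adjusted p of 0.788 in edgeR. Without TAA replicate 1 it was 1.46 with an unadjusted p of 0.0776. For TAA+celecoxib against control it was 1.92 ± 0.66, with an unadjusted p of 0.0173 and an adjusted p of 0.911 in edgeR. Deviations of same-numbered libraries of these groups correlated at 0.475, 0.178 and 0.337, which does not establish pairing. With replicate number as a block, the change for TAA+celecoxib against control was 1.62 with an unadjusted p of 0.0578. Much of it came from TAA+celecoxib replicate 2, without which it was 0.60 and no longer under an unadjusted p of 0.05.

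Between TAA+celecoxib and TAA, *Alox15* differed by 0.10 ± 0.63 on the log2 scale (edgeR adjusted p of 0.983), and the groups overlapped. No sign could be given: it was -0.37 by limma-voom, -0.22 with the replicate block and -0.13 without TAA replicate 2. Without TAA+celecoxib replicate 2 the log2 change was -1.22, with an unadjusted p of 0.00705 and still no adjusted p under 0.05. The 3 libraries with the most *Alox15* were also the 3 with the highest summed level of the erythroid list: TAA+celecoxib replicate 2 at 4880 CPM, TAA replicate 1 at 4127 CPM and TAA replicate 3 at 1802 CPM. *Slc4a1*, the anion exchanger of the red cell membrane, was at 1776, 1614 and 690 CPM in them. The erythroid list (10 genes tested) summed to 107 to 789 CPM in control, 447 to 4127 CPM in TAA and 588 to 4880 CPM in TAA+celecoxib, with 10 of 10 fitted values higher in TAA than in control. The 789 CPM was in control replicate 1, the library with the least *Alox15*. The eosinophil list, without *Alox15*, summed to 117 to 291, 264 to 714 and 106 to 376 CPM. Of its 7 tested genes, 6 were higher in TAA than in control. The same 3 libraries were highest for this list too: TAA replicate 3 at 714 CPM, TAA+celecoxib replicate 2 at 376 CPM and TAA replicate 1 at 356 CPM. *Ccr3*, at 81.9 to 397 CPM, was its largest part by median. *Epx*, *Prg2* and *Prg3* together ran from 2.77 CPM in control replicate 1 to 262 CPM in TAA replicate 3. The part of either cell type in the *Alox15* values was not tested.

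The genes whose log2 CPM followed *Alox15* most closely over the 9 libraries were *Klhdc10* (r = 0.98, rho = 0.98), *Tmcc2* (r = 0.98, rho = 0.95) and *Nfe2* (r = 0.97, rho = 0.95), the last a transcription factor of erythroid cells and megakaryocytes. Without the 2 libraries farthest from the median *Alox15* level, these r were 0.94, 0.94 and 0.90. They are the top of 15954 genes and describe these libraries only.

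*Alox12* (chromosome 10, 56851734 to 56864005) was at 9.49, 17.1 and 16.4 CPM in control, at 21.6, 23.0 and 19.3 CPM under TAA and at 14.7, 20.8 and 19.7 CPM in TAA+celecoxib. The 3 TAA libraries were above all control libraries, and TAA+celecoxib overlapped both. The log2 fold change for TAA against control was 0.57 ± 0.24, with an unadjusted p of 0.0415 and an adjusted p of 0.788 in edgeR. Without control replicate 1, the lowest library, it was 0.35 with an unadjusted p of 0.0986. TAA+celecoxib differed from TAA by -0.21 ± 0.24 and from control by 0.36 ± 0.24 on the log2 scale.

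The megakaryocyte and platelet list was also higher in TAA than in control. Its 15 genes summed to 320 to 435 CPM in control, 561 to 581 CPM in TAA and 351 to 469 CPM in TAA+celecoxib. For this sum TAA lay above TAA+celecoxib without overlap, whereas *Alox12* overlapped between these groups. *F2r*, at 96.2 to 194 CPM, was the largest part of the list by median. Of the list's 13 tested genes, 12 had higher fitted values in TAA than in control and 2 in TAA+celecoxib than in TAA. *Gp1bb* was at 0 in all 9 libraries. *Gp1ba*, a subunit of the platelet receptor for von Willebrand factor, was at 1.48 to 8.19, 10.97 to 13.0 and 5.51 to 11.2 CPM in the same order of groups. *Pf4*, another gene of the list, was at 86.8 to 107.5, 91.1 to 168 and 73.2 to 97.8 CPM, and all its groups overlapped. The part of platelet RNA in the *Alox12* values was not tested. *Rab27b* (r = 0.99, rho = 0.98), *Gp1ba* (r = 0.98, rho = 0.95) and *Tubb1*, the platelet beta tubulin (r = 0.97, rho = 0.92), followed *Alox12* most closely. Leaving out control replicate 1 and TAA+celecoxib replicate 1, the farthest from the median, gave r of 0.98, 0.90 and 0.81.

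*Alox12* and *Alox15* lie 89.7 kb apart on the same strand of chromosome 10, with *Alox12e* between them too low to test. Within 200 kb of them the files list 25 genes, of which 15 were tested. Only *Alox12* and *Alox15* among these 15 had an unadjusted p under 0.05 in edgeR for TAA against control. The window was drawn around these genes. Of all genes, 2.85% were higher and 3.15% lower at that level, so this count does not set the stretch apart.

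**Figure D3:**
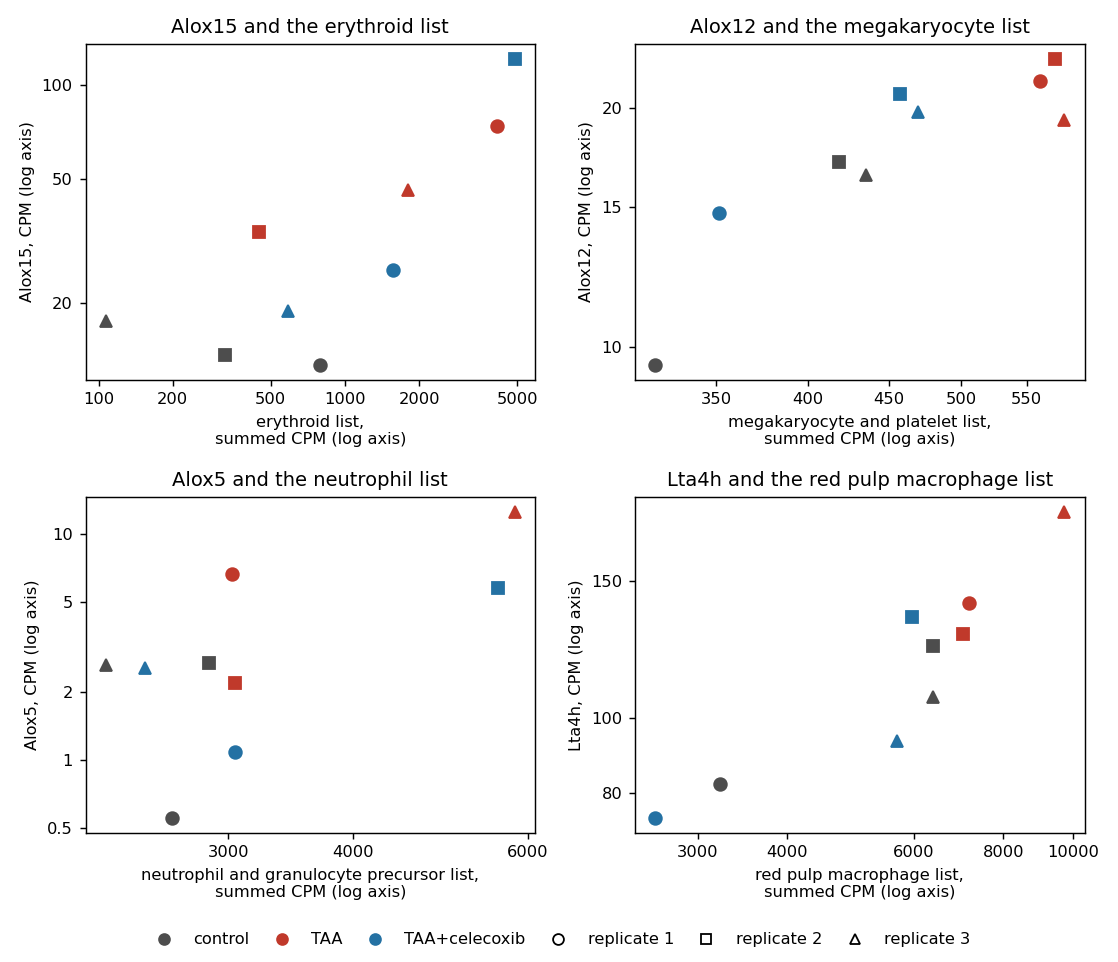
CPM of *Alox15*, *Alox12*, *Alox5* and *Lta4h* (log axes) against the summed CPM of a marker list in the same library, coloured by group. The highest *Alox15* points are the highest erythroid sums, and *Lta4h* is lowest in both libraries with the lowest macrophage sums, control replicate 1 and TAA+celecoxib replicate 1.

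*Alox5* (chromosome 4, 148398892 to 148446303) was at 0.555, 2.67 and 2.62 CPM in control, at 6.61, 2.19 and 12.4 CPM under TAA and at 1.08, 5.75 and 2.54 CPM in TAA+celecoxib. The lowest value, in control replicate 1, was 9 counts (exact Poisson interval 4.12 to 17.1, counting error only). The groups overlapped because TAA replicate 2 lay below 2 of the control libraries. The log2 fold change was 1.86 ± 0.81 for TAA against control, with an unadjusted p of 0.0488 and an adjusted p of 0.788 in edgeR. Without TAA replicate 3 it was 1.17 with an unadjusted p of 0.208. TAA+celecoxib differed from TAA by -1.19 ± 0.80 (unadjusted p of 0.170 in edgeR), by -0.50 without TAA replicate 3 and by -1.96 without TAA+celecoxib replicate 2.

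*Alox5ap* (chromosome 12, 6854920 to 6879154) was at 16.8, 31.1 and 27.7 CPM in control, at 25.2, 32.7 and 68.7 CPM under TAA and at 15.8, 40.0 and 20.2 CPM in TAA+celecoxib. TAA replicate 3 was the highest library and all 3 groups overlapped. Its log2 difference was 0.74 ± 0.45 for TAA against control (unadjusted p of 0.137 in edgeR), and 0.20 without TAA replicate 3. Against TAA, TAA+celecoxib differed by -0.74 ± 0.45 (unadjusted p of 0.139), and -0.19 without that same TAA library.

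*Lta4h* (chromosome 7, 34288365 to 34320235) was at 82.0, 124 and 106 CPM in control, at 140, 128 and 184 CPM under TAA and at 74.3, 135 and 93.2 CPM in TAA+celecoxib. The TAA libraries lay above all control libraries, and TAA+celecoxib replicate 2 lay between TAA values. The log2 difference was 0.54 ± 0.25 for TAA against control (unadjusted p of 0.0570, adjusted p of 0.788 in edgeR) and -0.58 ± 0.25 for TAA+celecoxib against TAA (unadjusted p of 0.0422, adjusted p of 0.890). Without TAA+celecoxib replicate 1, which stood apart, the latter was -0.41 with an unadjusted p of 0.135. TAA+celecoxib and control differed by -0.05 ± 0.25.

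Over the 9 libraries, 36 pairs of these genes were correlated on log2 CPM with exact permutation tests, adjusted over the 36. Pearson's r passed for *Alox5ap* with *Lta4h* (r = 0.928, permutation p of 0.000416, adjusted 0.0150) and for *Alox5* with *Lta4h* (r = 0.905, permutation p of 0.00123, adjusted 0.0221). Spearman's rho was 0.833 (permutation p of 0.00827, adjusted 0.0992) and 0.883 (permutation p of 0.00308, adjusted 0.0554) for these pairs, and neither passed. By rho, 1 other pair passed, *Alox5ap* with *Cysltr1* (rho = 0.917, permutation p of 0.00131, adjusted 0.0472), whose r was 0.787 (permutation p of 0.0116, adjusted 0.104) and 0.630 without its 2 farthest libraries. Without the 2 libraries farthest from the median of the first gene, r was 0.829 for both pairs that passed by r. Over the 7 libraries without control replicate 1 and TAA+celecoxib replicate 1, r was 0.869 and 0.842, the adjusted permutation p was 0.314 for both, and 0 of the 36 pairs passed by either measure, with 4 at an unadjusted p of r under 0.05. These permutations exchanged libraries across all 3 groups and across replicate numbers. A shift shared by a group or by same-numbered libraries therefore also gives a small p.

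The red pulp macrophage list (15 of 16 genes tested, *Timd4* not analysed here) summed to 3223 to 6390 CPM in control, 7028 to 9718 CPM in TAA and 2620 to 5968 CPM in TAA+celecoxib. Of the 15, 14 had higher fitted values in TAA than in control and 0 in TAA+celecoxib than in TAA. The neutrophil and granulocyte precursor list (16 of 17 genes tested) summed to 2260 to 2869, 3024 to 5820 and 2473 to 5606 CPM, with 16 of 16 fitted values higher in TAA than in control and 1 of 16 higher in TAA+celecoxib than in TAA. *Lyz2*, also a macrophage gene, made up 54.5% to 95.5% of that sum. Without it, a step chosen after the values were seen, TAA replicate 3 stood highest at 2648 CPM, with TAA+celecoxib replicate 2 next at 971 CPM and control replicate 1 lowest at 117 CPM. *S100a9*, an abundant neutrophil gene, was at 1009 CPM in TAA replicate 3 and at 44.4 to 255 CPM elsewhere. The mast cell and basophil list (8 of 14 genes tested) summed to 52.0 to 71.2 CPM in control, 74.9 to 85.6 CPM in TAA and 58.7 to 65.7 CPM in TAA+celecoxib, with 6 of 8 fitted values higher in TAA than in control and 2 of 8 higher with celecoxib than in TAA. By median its largest parts were *Kit* (25.6 to 38.2 CPM) and *Gata2* (10.5 to 20.4 CPM), each highest in a control library. *Cpa3* was at 0.555 to 1.39 CPM in control, 3.77 to 9.80 CPM in TAA and 1.01 to 3.23 CPM in TAA+celecoxib. *Mcpt1* was at 2.61 to 3.33, 10.3 to 16.1 and 2.03 to 7.98 CPM. The T cell list went the other way, at 884 to 1092, 639 to 781 and 736 to 1033 CPM, with 1 of 11 and then 10 of 11 higher. The monocyte list (8 of 9 genes tested) summed to 661 to 1981 CPM in control, 1255 to 1787 CPM in TAA and 567 to 1106 CPM in TAA+celecoxib. It was highest in control replicate 2, and TAA overlapped control. Of the 8, 7 had higher fitted values in TAA than in control and 2 in TAA+celecoxib than in TAA. *Fcna*, at 443 to 1750 CPM, was the largest part of this list by median. The part of these cells in the *Alox5*, *Alox5ap*, *Lta4h*, *Ltc4s* and *Ltb4r* values was not tested.

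*Slc43a3* (r = 0.98, rho = 0.92), *Nbr1* and *Zhx3* (both r = 0.97) followed *Alox5* most closely. *Mtmr10* (r = 0.99), *Soat1*, which esterifies cholesterol, and AABR07033887.1 (both r = 0.97) followed *Alox5ap*. *Slc16a3*, a lactate transporter, *Mblac2* and *Ncoa4*, a receptor for the autophagy of ferritin, followed *Lta4h* (r = 0.97 for each). With the 2 libraries farthest from the median left out, these 9 values of r ran from 0.90 to 0.99.

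Celecoxib given with TAA was compared with TAA alone to ask what the drug added. *Ltb4r* and *Lta4h*, the receptor and the enzyme of leukotriene B4, had the smallest p-values among the 9 genes, both lower with celecoxib, and neither passed the adjusted threshold. In edgeR 0% of all genes passed. At unadjusted p under 0.05, 0 of 9 were higher and 2 lower, against 2.63% and 2.46% of all genes. The groups did not overlap for 0 of 9 in either direction, against 5.87% higher and 5.03% lower of all genes. Fitted values were above 0 for 3 of 9, against 51.2% of all genes, and the median log2 fold change was -0.58, against 0.01 for all genes. This comparison and that of TAA with control share the TAA libraries, so a high TAA library moves both.

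*Ltb4r* (chromosome 15, 34452116 to 34453171) was at 0.678, 1.89 and 1.48 CPM in control, at 1.78, 0.959 and 6.42 CPM under TAA and at 0.570, 0.421 and 1.24 CPM in TAA+celecoxib. These values rest on 6 to 123 counts, and TAA replicate 3 alone held the 123. The log2 fold change for TAA+celecoxib against TAA was -2.02 ± 0.76, with an unadjusted p of 0.0264 and an adjusted p of 0.890 in edgeR. Without TAA replicate 3 it was -0.86 with an unadjusted p of 0.217. For TAA against control the log2 difference was 1.18 ± 0.73 (unadjusted p of 0.139), and 0.02 without that library. *Acvr1b* (r = 0.96, rho = 0.93), *Sod2*, the mitochondrial superoxide dismutase (r = 0.93, rho = 0.97), and *Fam20a* (r = 0.93, rho = 0.93) followed *Ltb4r* most closely, with r of 0.87, 0.83 and 0.94 without the 2 farthest libraries.

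*Cysltr1* (chromosome X, 77674150 to 77700269) was at 1.97, 3.00 and 5.29 CPM in control, at 2.77, 5.34 and 5.64 CPM under TAA and at 1.14, 3.30 and 2.59 CPM in TAA+celecoxib. All groups overlapped. The log2 difference for TAA+celecoxib against TAA was -0.97 ± 0.50 (unadjusted p of 0.0847, adjusted p of 0.890 in edgeR). The gene overlaps the entries AABR07039472.1 and U1, and strand is not stated for the counting, so reads could be shared. *Cysltr2* (chromosome 15, 54905274 to 54906203) was at 2.65, 3.34 and 2.50 CPM in control, at 2.77, 2.40 and 1.67 CPM under TAA and at 2.66, 3.86 and 3.10 CPM in TAA+celecoxib. Its fitted value was lower in TAA than in control, the only one of the 9, at -0.32 ± 0.30 on the log2 scale (unadjusted p of 0.312), and was 0.49 ± 0.30 higher with celecoxib (unadjusted p of 0.129).

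*Dab2ip* and *Ftl1*, the ferritin light chain (both r = 0.96), and AABR07038930.1 (r = 0.96) followed *Cysltr1* most closely. For *Cysltr2* the closest were *Adck1* (r = 0.92), *Dok6* and *Zbtb40* (both r = 0.89), the weakest likeness of the 9, with r of 0.62, 0.80 and 0.77 without the 2 farthest libraries.

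*Ltc4s* (chromosome 10, 35737664 to 35739625) held 25, 6 and 4 counts in control, 30, 3 and 14 in TAA and 13, 24 and 19 in TAA+celecoxib. Scaled for library size, the highest were TAA replicate 1 at 2.13 CPM, TAA+celecoxib replicate 2 at 1.68 CPM and control replicate 1 at 1.54 CPM, and the groups overlapped. The log2 difference was 0.54 ± 0.89 for TAA against control and 0.23 ± 0.87 for TAA+celecoxib against TAA. The former ran from -0.52 without TAA replicate 1 to 1.83 without control replicate 1, so no direction could be given. *Plekho1* (r = 0.97), *Ginm1* and AABR07024825.2 (both r = 0.94) followed it most closely.

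**Figure D4:**
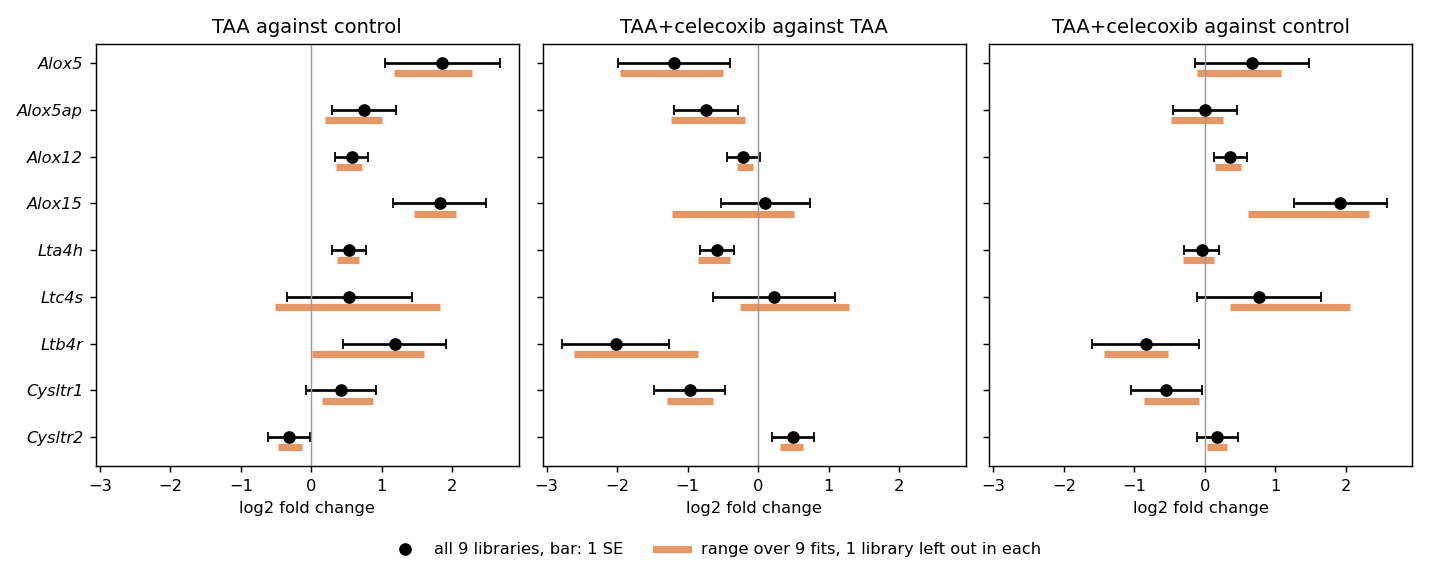
Log2 fold change of each gene in the 3 comparisons, with 1 SE as a bar, and in orange the range over 9 fits that each left out 1 library. In TAA against control, the range of *Ltc4s* (-0.52 to 1.83) crosses 0. In TAA+celecoxib against TAA, the ranges of *Alox15* (-1.22 to 0.51) and *Ltc4s* (-0.25 to 1.29) cross 0. In TAA+celecoxib against control, those of *Alox5* (-0.11 to 1.08), *Alox5ap* (-0.49 to 0.25) and *Lta4h* (-0.31 to 0.13) cross 0.

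TAA+celecoxib against control asks how far rats given both agents differed from the control group. *Alox15* alone of the 9 had an unadjusted p under 0.05, as given above, and the other 8 had unadjusted p of 0.165 or more. In edgeR 0% of all genes passed. At unadjusted p under 0.05, 1 of 9 was higher and 0 lower, against 2.96% and 2.07% of all genes. *Alox15* was also the single gene whose groups did not overlap, against 5.27% of all genes higher and 4.42% lower. Fitted values were above 0 for 6 of 9, against 50.2% of all genes, with a median log2 fold change of 0.18.

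Other genes of the pathway were taken from a list of 49 phospholipases, glutathione enzymes, lipoxygenases, exporters, leukotriene-degrading enzymes and receptors of related lipids. Of these, 47 were in the files and 34 were tested, and none passed the adjusted threshold in any comparison. For TAA against control, 22 of 34 had higher fitted values, with 4 higher and 1 lower at unadjusted p under 0.05 and a median log2 fold change of 0.25. The shares of all genes were 50.2%, 2.85% and 3.15% for these 3 counts. With celecoxib against TAA alone, 13 of 34 were higher, with 1 higher and 1 lower at that level and a median of -0.18, beside shares of all genes of 51.2%, 2.63% and 2.46%. With both agents against control, 22 of 34 were higher, with 1 higher and 0 lower and a median of 0.11, beside 50.2%, 2.96% and 2.07% of all genes.

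*Hpgd*, whose enzyme inactivates prostaglandins and lipoxins by oxidation, was at 21.5, 14.3 and 18.6 CPM in control, at 10.4, 9.32 and 9.40 CPM under TAA and at 14.4, 27.2 and 17.1 CPM in TAA+celecoxib. The TAA libraries lay below all 6 others. Its log2 difference was -0.90 ± 0.26 for TAA against control (unadjusted p of 0.00686, adjusted p of 0.788 in edgeR) and 1.01 ± 0.26 for TAA+celecoxib against TAA (unadjusted p of 0.00354, adjusted p of 0.890). *Pla2g2a*, a secreted phospholipase that can free arachidonic acid, was at 16.4, 20.3 and 26.6 CPM in control, at 28.1, 38.8 and 25.4 CPM under TAA and at 17.8, 16.7 and 19.2 CPM in TAA+celecoxib. TAA lay above TAA+celecoxib without overlap, at a log2 difference of -0.78 ± 0.22 (unadjusted p of 0.00611), and overlapped control, at 0.54 ± 0.22 (unadjusted p of 0.0340). Without TAA replicate 2, the highest library for *Pla2g2a*, these differences were -0.58 and 0.34.

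*Ephx1*, a microsomal epoxide hydrolase, had the smallest p of the list for TAA against control: it was at 23.6, 30.9 and 33.1 CPM in control, at 53.9, 51.6 and 60.3 CPM under TAA and at 26.8, 48.7 and 42.4 CPM in TAA+celecoxib. TAA lay above every library of both other groups, by 0.92 ± 0.22 over control on the log2 scale (unadjusted p of 0.00256). *Cmklr1*, a receptor for chemerin, was at 11.03, 17.3 and 13.8 CPM in control, at 33.3, 22.4 and 21.5 CPM under TAA and at 18.4, 20.5 and 21.7 CPM in TAA+celecoxib. Both groups given TAA lay above control, by 0.87 ± 0.22 (unadjusted p of 0.00364) and 0.52 ± 0.22 (unadjusted p of 0.0432). *Gpr18*, among the 4 smallest p with celecoxib against TAA, differed by 0.31 ± 0.14 (unadjusted p of 0.0541). *Abcc4*, an exporter of lipid mediators, and *Mgst3*, a glutathione transferase, were among the 4 smallest for TAA+celecoxib against control, at 0.63 ± 0.34 (unadjusted p of 0.0941) and 1.37 ± 0.77 (unadjusted p of 0.108). Without TAA+celecoxib replicate 2 these were 0.17 and 0.37. *Mgst3* was highest in TAA+celecoxib replicate 2 at 77.4 CPM and TAA replicate 1 at 72.4 CPM, as *Alox15* was.

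**Figure D5:**
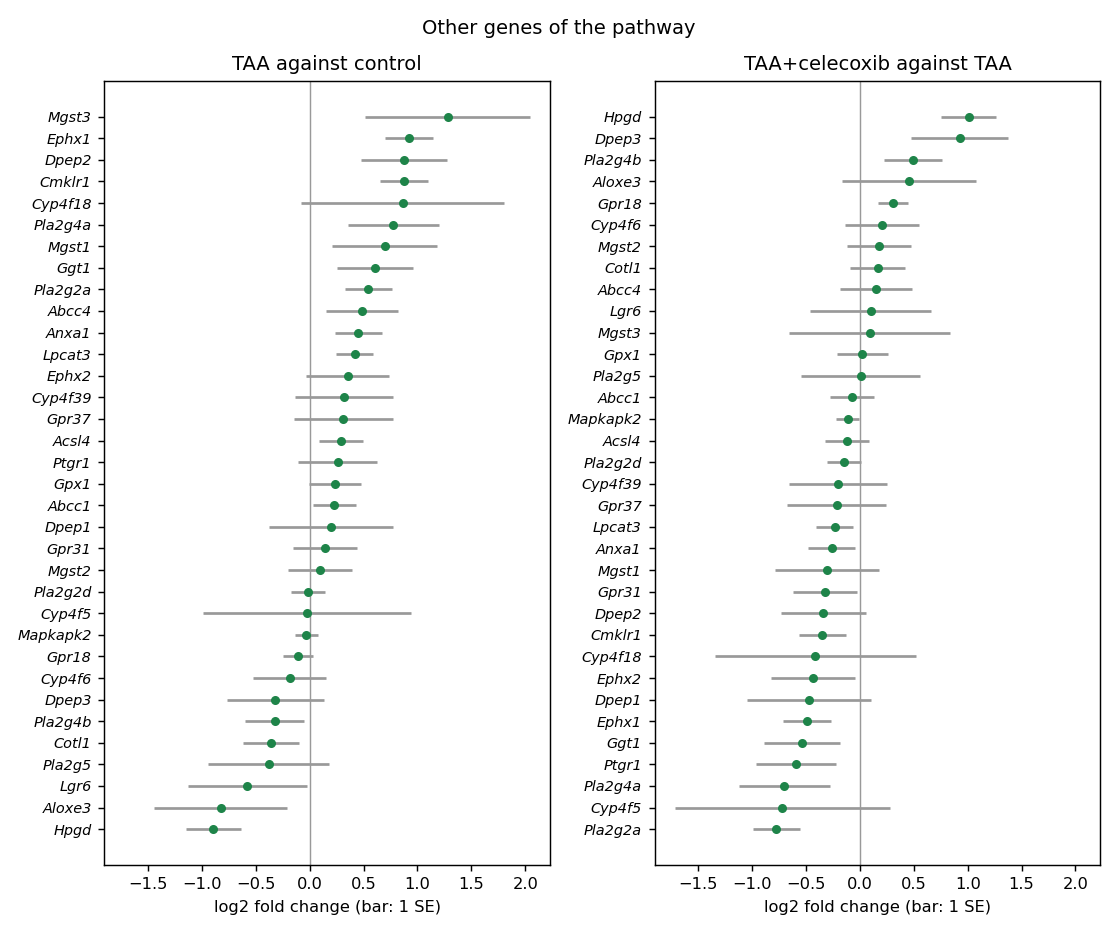
Log2 fold changes of the 34 other tested pathway genes, with 1 SE as a bar, for TAA against control and for TAA+celecoxib against TAA, sorted within each panel. *Hpgd* is the lowest on the left (-0.90) and the highest on the right (1.01), and both panels share the TAA libraries.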

How the data were processed

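The authors deposited whole-number read counts per gene, used for all tests, and FPKM values (counts scaled by gene length and library), used only to set levels of different genes side by side. HISAT2 2.0.5 (a read aligner) and the build mRatBN7.2 are named in the submitters' processing notes. Which tool counted, with which annotation and strand setting, is not given in the sources used here. Gene positions keep the deposited coordinates. Chromosome 1 runs to 282724300 in them, past its end in mRatBN7.2, so they do not follow the build named in the notes. Which build they follow is unresolved, and it is not that of the GRCr8 promoters.

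Counts were tested with edgeR 4.0.16 in R 4.3.3: its quasi-likelihood test with 1 fit over the 9 libraries, TMM scaling, filterByExpr (minimum count 10, total 15), 2-sided, with Benjamini-Hochberg adjustment over 15954 genes at 0.05. SE is the log2 fold change divided by the square root of F. The code was tested on simulated data. Alternatives were DESeq2 1.42.0, limma-voom 3.58.1, other scaling, no filter, fits of 2 groups, a replicate block and left-out libraries. An exact permutation test of 3 against 3 libraries cannot go below p = 0.1. Intervals of counts are exact Poisson at 95%. Log2 CPM for correlations used a prior count of 2.

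Groups came from the treatment labels and replicate numbers from the titles. Deviations of same-numbered libraries correlated at 0.475, 0.178 and 0.337 between control and TAA+celecoxib, all above 0.1. A replicate block was therefore among the alternatives, while the main fit used group only. Differently numbered libraries were not compared, and replicate 1 of both groups stood apart, so these values do not establish pairing. Named were the 9 genes, the 4 other pathway genes with the smallest p per comparison, and the 3 genes most like each by Pearson's r. The members, lists and motifs were chosen with earlier results of these data known.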

Additional observations from a re-analysis of the deposited data

How the results depend on the processing

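Each of the 9 genes stayed without an adjusted p under 0.05 in all 3 comparisons under every alternative and left-out library. Of 459 recomputed values of these genes, 443 kept their direction and 16 reversed, and of 357 values of the other pathway genes named, 7 reversed. DESeq2 called 58 genes for TAA against control, 25 for TAA+celecoxib against TAA and 27 for TAA+celecoxib against control, where edgeR called 0 with 957, 812 and 803 genes at an unadjusted p under 0.05. A fit of only the 2 groups compared called 1 gene for TAA+celecoxib against control. Leaving out 1 library at a time gave 0 to 1, 0 to 3 and 0 to 2 called genes. Of the 9, the number with unadjusted p under 0.05 for TAA against control was 3, 1 with both control replicate 1 and TAA+celecoxib replicate 1 left out, and 0 to 4 with 1 library left out. For TAA+celecoxib against TAA it was 2, 1 by limma-voom and in the fit of 2 groups, 0 with both of those libraries left out, and 0 to 3 with 1 left out, when 1 to 3 of the 9 were higher. For TAA+celecoxib against control it was 1, 0 by limma-voom, 0 with the replicate block and 0 to 1 with 1 library left out. Reversed log2 changes were -0.37 (limma-voom) and -0.22 (replicate block) for *Alox15* with celecoxib against TAA, -0.0914 and -0.0113 for *Alox5ap* in TAA+celecoxib against control, and -0.0048 (replicate block) for *Mgst3* with celecoxib against TAA; the cause was not tested. With 1 library left out, log2 changes spanned -0.52 to 1.83 for *Ltc4s* in TAA against control. With celecoxib against TAA they spanned -1.22 to 0.51 for *Alox15*, -0.25 to 1.29 for *Ltc4s*, -0.32 to 0.43 for *Abcc4* and -0.91 to 1.07 for *Mgst3*. For TAA+celecoxib against control they spanned -0.11 to 1.08 for *Alox5*, -0.49 to 0.25 for *Alox5ap*, -0.31 to 0.13 for *Lta4h* and -0.20 to 0.29 for *Hpgd*. Same-numbered libraries correlated at 0.240, -0.021 and 0.189 between control and TAA. Between TAA and TAA+celecoxib they correlated at 0.120, -0.213 and 0.033, so neither set was wholly above 0.1. The block gave 4 of 9 genes at unadjusted p under 0.05 for TAA against control and 3 for TAA+celecoxib against TAA, and 0 called genes in each comparison. Depth limits *Ltc4s*, *Ltb4r* and *Alox5* most, with as few as 3, 6 and 9 counts in a library.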
